A study of Drosophila melanogaster with 2 samples.

Results

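In Drosophila embryos carrying GFP-tagged MESR4, 318 of the 6415 MESR4 summits that passed the authors' reproducibility threshold lay just outside promoters (4.96%, Clopper-Pearson 95% interval 4.44 to 5.52). A summit is the base of highest enrichment in a peak. These summits were chosen by 2 measured values, the authors' threshold and the distance of the summit from a transcription start site (TSS). They are those more than 500 and at most 2000 bp from the nearest TSS of any annotated gene, transposable elements left out, on arms 2L, 2R, 3L, 3R, 4 and X. Their signal, reproducibility and distance are therefore described here and carry no test. Of the other summits, 5825 lay within 500 bp of a TSS and are called promoter summits, and 272 lay over 2000 bp away.

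The study mapped MESR4 by chromatin immunoprecipitation and sequencing (ChIP-seq) in 1 group, with biological replicates numbered 1 and 3. All embryos were of the MESR4-GFP strain, a stable transgenic line that expresses MESR4 fused to GFP at its C terminus, and were collected as whole organisms of mixed sex at 0 to 24 h of development. A whole-embryo sample of this age pools all stages of embryogenesis and all tissues, so a summit cannot be assigned to a cell type. Both samples carry the same donor label, and no untagged or wild-type group was analysed. Chromatin was sonicated to fragments of 200 to 800 bp, a size range that reaches from a promoter into the distances described here. A free-text field describes the 2 samples as input controls. Their antibody field, however, gives MESR4, and each replicate's peak list was derived from its own alignment and 1 shared control alignment, so both were read as MESR4 immunoprecipitates. The antibody's actual target, GFP or MESR4 itself, is not stated beyond that field.

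MESR4 is a nuclear protein with zinc fingers and a PHD finger, a fold that in other proteins reads the tails of histones. Its name stands for a misexpression suppressor of Ras, the small GTPase that relays growth factor signals. Sequence just outside a promoter can belong to the promoter itself, to an alternative start of the same gene, or to a nearby enhancer. First introns of fly genes often hold such regulatory sequence. A summit whose nearest TSS also had a promoter summit is called a satellite, and one whose nearest TSS had none is called lone.

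The sequences of 9 of the strongest summits are shown with 100 bp to each side of the summit, on the plus strand of the release 6 genome (dm6), so that the 3 settings described below can be compared. Capitals mark matches, on either strand, to the word AGTGTA, to the word ACAGTG or to the word ACACTG, the words of 6 letters described further on. The first 3 are the strongest satellites of different genes, at dikar (chr3L:6743759-6743959), cbt (chr2L:480993-481193) and CG11050 (chr2L:6612618-6612818). Only the window at CG11050 among these 3 holds a word.
dikar: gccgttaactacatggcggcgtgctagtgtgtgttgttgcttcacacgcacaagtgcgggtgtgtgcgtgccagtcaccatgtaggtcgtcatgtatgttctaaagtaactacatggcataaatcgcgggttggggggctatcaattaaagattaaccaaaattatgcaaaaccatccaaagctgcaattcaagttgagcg
cbt: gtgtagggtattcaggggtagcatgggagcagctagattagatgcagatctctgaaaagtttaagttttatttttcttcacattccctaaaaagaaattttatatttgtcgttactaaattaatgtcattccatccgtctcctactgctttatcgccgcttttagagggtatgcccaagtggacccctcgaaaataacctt
CG11050: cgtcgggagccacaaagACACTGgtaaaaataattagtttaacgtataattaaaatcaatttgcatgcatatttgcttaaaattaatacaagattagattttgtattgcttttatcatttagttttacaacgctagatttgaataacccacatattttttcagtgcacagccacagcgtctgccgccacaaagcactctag

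The next 3 are the strongest lone summits in a first intron, at Lk6 (chr3R:11760956-11761156), CG9663 (chr2L:3302090-3302290) and CG9837 (chr3R:8811572-8811772). The window at Lk6 holds 1 word and also a GAGA element, and the window at CG9837 holds 2 TATA boxes.
Lk6: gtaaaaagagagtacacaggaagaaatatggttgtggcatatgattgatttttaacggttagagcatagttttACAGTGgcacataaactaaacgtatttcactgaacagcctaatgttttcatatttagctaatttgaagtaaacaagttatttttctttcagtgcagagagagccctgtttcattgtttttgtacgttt
CG9663: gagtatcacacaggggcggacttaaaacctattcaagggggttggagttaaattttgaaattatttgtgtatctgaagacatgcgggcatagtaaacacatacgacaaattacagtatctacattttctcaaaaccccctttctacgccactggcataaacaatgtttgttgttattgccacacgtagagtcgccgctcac
CG9837: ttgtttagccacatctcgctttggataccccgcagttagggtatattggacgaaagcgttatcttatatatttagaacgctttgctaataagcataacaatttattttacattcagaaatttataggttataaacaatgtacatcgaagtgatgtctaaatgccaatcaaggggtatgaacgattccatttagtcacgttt

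The last 3 are among the strongest lone summits in intergenic sequence upstream of the nearest TSS. The window at Aldh-III, which ranks between jp and CG17896 by signal, is not shown. The 3 lie at lncRNA:CR45643 (chr3R:16222394-16222594), jp (chr2L:9567424-9567624) and CG17896 (chrX:493922-494122). The CG17896 window has the most words of the 9 windows, with 5 matches, and the lncRNA:CR45643 window has 2.
lncRNA:CR45643: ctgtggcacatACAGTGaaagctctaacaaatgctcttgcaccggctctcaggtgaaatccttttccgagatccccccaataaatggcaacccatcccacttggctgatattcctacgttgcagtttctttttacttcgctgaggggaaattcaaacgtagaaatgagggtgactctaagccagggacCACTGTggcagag
jp: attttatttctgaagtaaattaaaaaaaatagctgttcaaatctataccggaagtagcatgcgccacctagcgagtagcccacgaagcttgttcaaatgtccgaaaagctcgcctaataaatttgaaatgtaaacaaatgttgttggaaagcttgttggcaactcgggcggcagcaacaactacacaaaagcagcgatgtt
CG17896: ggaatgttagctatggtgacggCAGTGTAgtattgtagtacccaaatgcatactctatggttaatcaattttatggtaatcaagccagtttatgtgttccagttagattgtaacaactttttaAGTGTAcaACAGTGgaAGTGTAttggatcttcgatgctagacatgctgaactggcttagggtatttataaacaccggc

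Summits in the zone between 500 and 2000 bp from a TSS rarely passed the threshold. Of the 30000 summits in the list called on both replicates together, 8461 lay in this zone and 318 of them passed (3.76%), against 21.4% of all summits in that list, a contrast that the rule used. The share was 44.6% within 500 bp of a TSS (5825 of 13071) and 3.21% over 2000 bp away (272 of 8468). Per length of genome the zone was intermediate. It covered 32373944 bases and held 9.82 summits per Mb, against 321 per Mb within 500 bp and 3.27 per Mb over 2000 bp away.

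Density declined with distance on the upstream side. From 500 to 750 bp upstream there were 55 summits, or 18.9 per Mb, and from 750 to 1000 bp upstream 27, or 10.8 per Mb. From 1000 to 2000 bp upstream the 250 bp bins ran from 5.11 to 8.93 per Mb. Downstream the decline was shallower, with 50 summits (11.9 per Mb) from 500 to 750 bp and 8.91 to 9.75 per Mb in the next 4 bins of 250 bp. The last bin before 2000 bp held 14 (5.64 per Mb). The median distance over all 318 was 960 bp.

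Summits close to the limits of the zone are given as a description. Just inside the lower limit lay the summit in the first intron of Rab10, a small GTPase of secretory traffic, the first base beyond 500 bp, with a signal of 315.0. The summits at aru and at lncRNA:CR44619, both at 505 bp, had signals of 250.3 and 575.2. Just outside lay CG42671 at 500 bp with a signal of 293.4, and ph-p, a Polycomb group gene, at 491 bp with a signal of 1086. Near the far limit CG4218 had a summit at 1993 bp with a signal of 285.1, and CG12290 one at 2002 bp with a signal of 234.1.

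Signal is the enrichment value the authors deposited for each summit, on a scale set separately for each list. In the thresholded list the summits of the zone had a median signal of 246.8 (quartiles 202.9 and 344.4, range 177.1 to 2044), against 401.7 at promoter summits and 230.5 over 2000 bp away. They were thin among the strongest summits of the list, making up 8 of the top 500 (1.60%) and 7 of the next 500 (1.40%). Beyond rank 5000 they made up 154 (10.9%). The top 2000 held 30 summits of the zone, and the strongest of them are described by setting below.

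**Figure D1:**
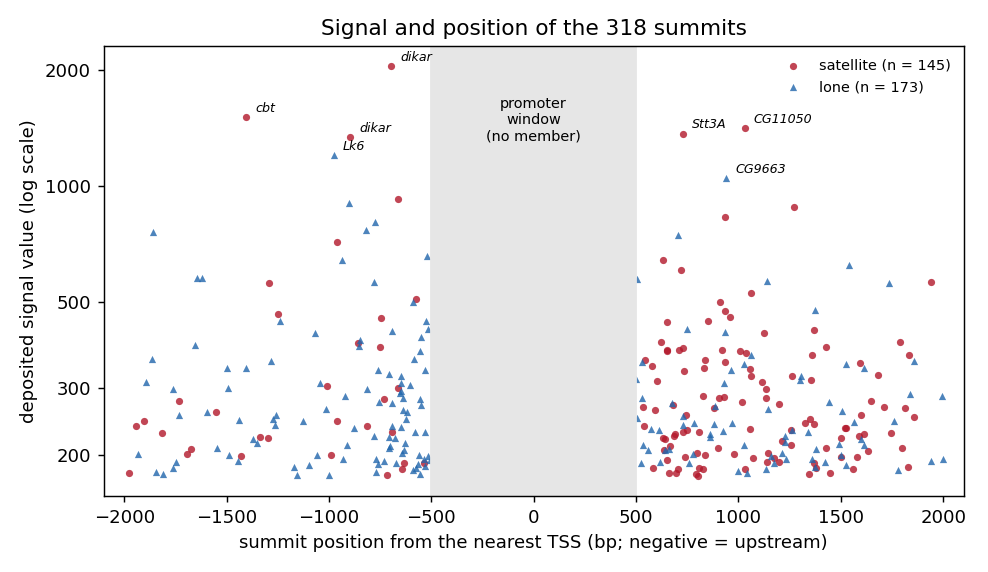
Deposited signal (log scale) of each of the 318 summits against its position from the nearest TSS in bp, with upstream positions negative; circles are satellites and triangles are lone summits, and the grey band is the promoter window. Most points sit near the lower limit of the list, and 7 summits, at dikar (2), cbt, CG11050, Stt3A, Lk6 and CG9663, exceed 1000.

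Introns held most of the summits. The summit base lay in an intron in 209 of 318 cases (65.7%, 60.2 to 70.9), against 13.7% of promoter summits and 35.3% of all bases in the zone. Summits over 2000 bp away had a similar intronic share, 68.0%. Coding exons showed the opposite picture, with 6 summits (1.89%, 0.695 to 4.06), although 29.6% of the zone's bases are coding. Intergenic sequence held 73 (23.0%, 18.4 to 28.0), close to its 22.8% of the bases. The 3' UTRs held 13 summits (4.09%, against 7.75% of the bases), non-coding exons 9 (2.83%) and 5' UTRs 8 (2.52%). No test was run for these shares, because summits are not replicates, and intervals cover counting error only.

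**Figure D2:**
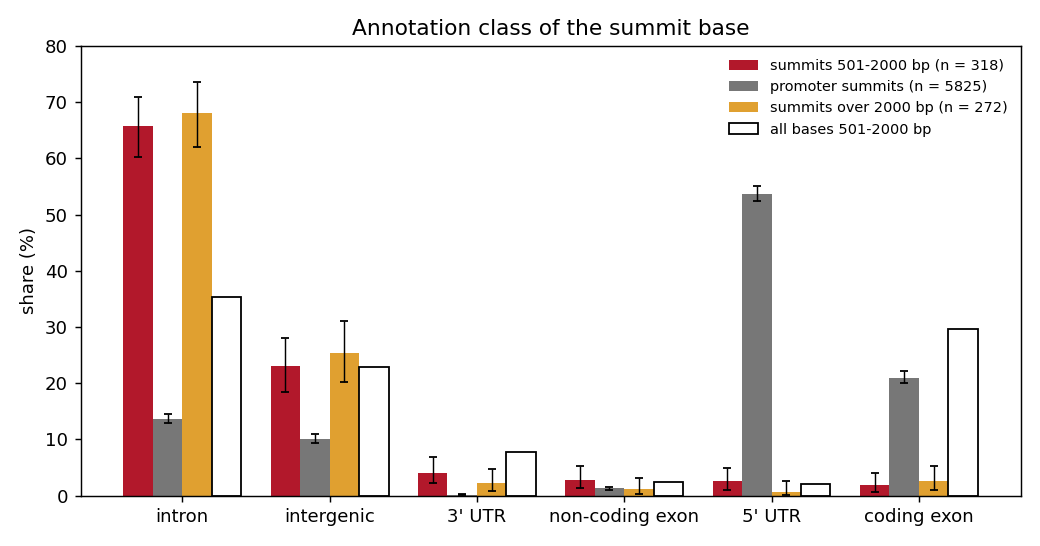
Share of summits (%) by annotation class of the summit base, for the 318 summits of the zone, 5825 promoter summits and 272 summits over 2000 bp away, with the share of all bases of the zone as open bars; error bars are Clopper-Pearson 95% intervals. Introns hold 65.7% of the 318 summits and 35.3% of the bases, and coding exons hold 1.89% and 29.6%.

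The introns were mainly first introns. A first intron of at least 1 transcript held 180 of the 318 summits (56.6%, 51.0 to 62.1), against 12.4% of promoter summits, 43.8% of summits over 2000 bp away and 22.8% of the zone's bases. Counted differently, 180 of the 209 intronic summits lay in an intron of the gene whose TSS was nearest (86.1%). Host introns had a median length of 3791 bp, 53 were over 10000 bp and 27 were under 1000 bp. The shortest was a later intron of CG11050, at 140 bp. Where several introns held a summit, the shortest was taken. Lengths were not set against those of the introns at all bases of the zone.

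Position relative to the start was close to that of the bases. The summit lay upstream of the nearest TSS in 133 cases (41.8%, 36.3 to 47.5), against 19.8% of promoter summits and 39.3% of the zone's bases. Upstream did not mean intergenic, since 72 of these 133 lay in an intron, and 49 of them in an intron of the same gene. At those 49 the nearest TSS is an alternative start inside the gene. Downstream, 137 of 185 lay in an intron and 128 in a first intron (69.2%). In a second annotation, with 23121 RefSeq transcript starts, none of the 318 summits had a start within 500 bp and 2 had one nearer than the nearest Ensembl TSS. How many starts the annotations share was not counted, so this is no separate check for missed starts.

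Satellites made up 145 of the 318 summits (45.6%, 40.0 to 51.2), at 135 different promoter summits. Of the bases in the zone, 24.5% have a nearest TSS with a promoter summit, so satellites occurred at 18.3 per Mb of such sequence, against 7.07 per Mb for lone summits in the remaining sequence. The difference was greater downstream (18.9 against 5.32 per Mb) than upstream (16.7 against 9.31 per Mb). Among all summits of the 30000-row list in the zone, before thresholding, 41.2% already lay at a bound TSS. On the downstream side lay 112 of 145 satellites (77.2%), close to the 75% of bases at bound TSSs that lie downstream. A first intron held 101 satellites (69.7%), against 17.6% of the bases at bound TSSs.

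Most satellites were weaker than their promoter summit, taken as the strongest one within 500 bp of the nearest TSS. Taking the strongest can lower the signal ratio, and a weaker promoter summit can lie closer. The ratio of satellite to promoter signal had a median of 0.616 and ranged from 0.0931 to 7.99, and the satellite was the stronger in 43 of 145 cases (29.7%, 22.4 to 37.8). The summits were a median of 1030 bp apart, and 25 satellites (17.2%) were in the same called region as a promoter summit. By separation the median ratio was 0.741 up to 500 bp (6 satellites), 0.601 from there to 1000 bp (62), 0.615 to 1500 bp (50) and 0.659 beyond 1500 bp (27).

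Each of the 5 strongest satellites exceeded its promoter summit. They were picked by their own signal, so this follows in part from the choice. The strongest of all lay 695 bp upstream of dikar, a bromodomain protein gene, at rank 11 of 6415. Its signal was 2044 in the thresholded list, where the dikar promoter summit 834 bp away had 988.9. In the lists of single replicates it had a signal of 1577 in replicate 1 (rank 5) and 600.1 in replicate 3 (rank 26). A second summit 202 bp further upstream in the same region had 1338. The dikar window printed above holds none of the words.

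cbt encodes cabut, a zinc finger transcription factor of dorsal closure. The summit 1405 bp upstream of its TSS lay in the first intron of the neighbouring gene ush, a cofactor of GATA factors. Its signal was 1512, with rank 41 in replicate 1 and rank 628 in replicate 3. It was 3.84 times that of the cbt promoter summit (393.9). CG11050 had the highest ratio, 7.99, with a signal of 1411 at a summit 1031 bp downstream and of 176.7 at its promoter summit. That promoter summit lay at the outer edge of the 500 bp window, with a signal close to the list minimum of 176.1. The ratio at CG11050 therefore depends on both limits. The downstream summit had rank 61 in replicate 1 and rank 386 in replicate 3. At Stt3A, which encodes a catalytic subunit of oligosaccharyltransferase, a summit in a coding exon 729 bp downstream had 1369, against 651.1 at the promoter. There replicate 3 gave the stronger rank, 54, against 142 in replicate 1.

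Other strong satellites lay at CG32772 and CG31635, zf30C, Sumo and chif. In first introns, CG32772 had 882.6 against 268.5 at its promoter, and CG31635 had 829.2 against 184.5. zf30C, a zinc finger gene, had 641.3 only 251 bp from a promoter summit of 489.3 in the same region. Sumo, the fly's small ubiquitin-like modifier, had a pair of them, 661 bp upstream (927.1) and 1057 bp downstream (334.9), around a promoter summit of 662.9. lwr, which encodes the enzyme that conjugates Sumo to its targets, also had a pair, in a 3' UTR, with 276.5 and 179.6 against 640.7 at the promoter. chif encodes the activating subunit of a replication kinase, and its satellite (717.2, promoter summit 428.0) lay in a first intron.

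**Figure D3:**
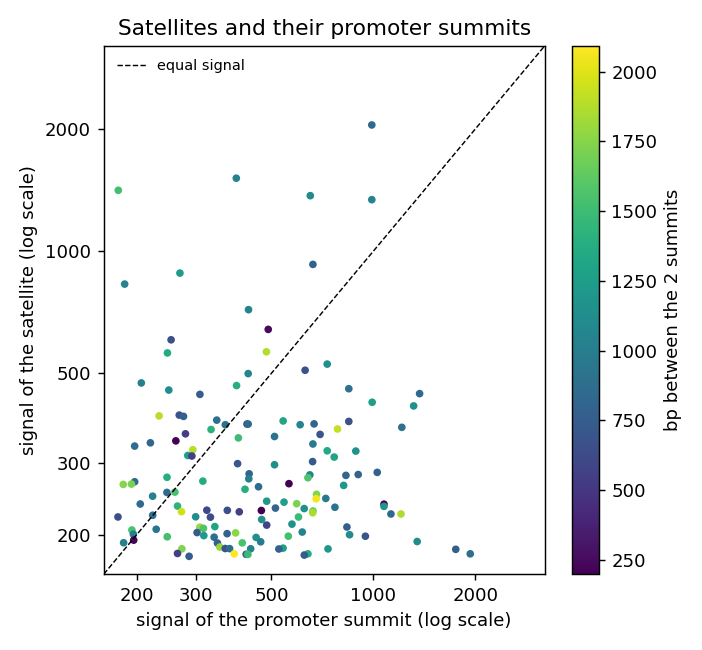
Signal of each of the 145 satellites (vertical axis, log scale) against that of its promoter summit (horizontal axis, log scale), both from the thresholded list; the dashed line marks equal signal and colour gives the bp between the summits. Above the line lie 43 points, led by CG11050 at the upper left, and 102 lie on or below it.

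Some satellites lay as close to their promoter summit as the list allows. The smallest spacing between any 2 summits of the thresholded list was 199 bp, and 4 satellites lay 199 or 200 bp from their promoter summit in the same region. These 4 were at l(3)mbt, Eph, asRNA:CR44030 and HmgZ. At l(3)mbt, a chromatin protein gene, the satellite was the stronger (340.9 against 261.2), and at Eph, a receptor tyrosine kinase gene, it was the weaker (267.4 against 563.3). Over all 318 summits, 21 (6.60%) had another thresholded summit within 250 bp, against 27.5% of promoter summits. The fragments of 200 to 800 bp are as long as these spacings or longer, and the part of fragment length in them was not tested.

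The 173 lone summits (54.4%, 48.8 to 60.0) lay in another kind of sequence. Of these, 100 lay upstream (57.8%), 96 in introns (55.5%), 79 in first introns (45.7%) and 59 in intergenic sequence (34.1%), against 22.8%, 77.9%, 69.7% and 9.66% of satellites. The bases of the zone differ in the same way for position. At unbound TSSs 43.9% of the bases are upstream and 27.5% intergenic, against 25% and 8.38% at bound TSSs. For introns the bases run the other way, with 37.8% intronic and 24.4% in a first intron at unbound TSSs, against 27.4% and 17.6% at bound TSSs. The nearest gene was protein-coding for 128 lone summits (74.0%) and for 139 satellites (95.9%). Lone summits in introns lay in longer introns, with a median host length of 4346 bp, against 2347 bp for satellites. Their signal was close to that of satellites, with medians of 244.9 and 254.4.

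Lone did not always mean an empty promoter. At 100 of the 173 the 30000-row list had a summit at the nearest TSS that had missed the threshold, and at 51 another TSS of the same gene had a promoter summit. The words lone and satellite thus depend on the threshold. Yet most lone summits were far from any thresholded promoter summit, since 152 (87.9%) had none within 2000 bp.

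The strongest lone summit lay in the first intron of Lk6, which encodes a kinase of the translation initiation factor eIF4E. It was 977 bp upstream of an internal TSS, with a signal of 1204 against 39.09 for the summit at that TSS in the 30000-row list. Replicate 1 gave a signal of 843.2 and replicate 3 one of 359.6, and it stood among the 250 strongest summits of both. Another TSS of Lk6 had a promoter summit, and the nearest promoter summit was 3373 bp away. In the first intron of CG9663 a summit 940 bp downstream had 1049 (rank 292 in replicate 1, rank 675 in replicate 3). Its nearest promoter summit was 52857 bp away, and a second lone summit in the same intron had 253.4.

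First introns with several lone summits included that of NFAT, the fly's single member of the NFAT family of transcription factors. Its intron of 23787 bp held summits 1642, 923 and 691 bp upstream of an internal TSS, with signals of 576.1, 284.6 and 238.9. Another TSS of NFAT had a promoter summit. Tlk, a kinase gene of chromatin assembly, also had 3 lone summits, each in a first intron near a different start, with signals of 259.4, 243.0 and 212.3. CG9837 had 2 in 1 intron, with 760.9 and 297.9. Reph had 641.9 at a summit in its first intron, 938 bp upstream of an internal TSS. In all, 23 of the 291 nearest genes had more than 1 summit of the zone, and none had more than 3.

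Of the 20 strongest summits, 3 lone ones lay in exons. One was in a coding exon 821 bp upstream of snoRNA:Psi18S-996, a guide RNA gene for ribosomal RNA modification, with 769.6 and a promoter summit 1448 bp away. The others were in non-coding exons, next to lncRNA:CR46035 (748.1) and lncRNA:CR44619 (659.2), and replicate 3 had no summit within 100 bp of the one at lncRNA:CR44619.

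Lone summits in a later intron included one of Trl, which encodes GAGA factor. It lay 1540 bp downstream of the nearest TSS with a signal of 625.7. It stood at rank 920 in replicate 1 and rank 4238 in replicate 3. Another TSS of Trl had a promoter summit, and the nearest promoter summit was 1345 bp away.

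In intergenic sequence the strongest lone summit lay 901 bp upstream of lncRNA:CR45643, with a signal of 903.5 and ranks of 559 and 580 in replicates 1 and 3. A second lone summit, 936 bp downstream of another start of that gene, had 417.9. Upstream of jp, the fly junctophilin gene, a summit at 774 bp had 805.0, with the stronger rank in replicate 3 (505, against 1009 in replicate 1). The promoter summit nearest to it was 1153 bp away, the smallest such distance of any lone summit. Aldh-III, an aldehyde dehydrogenase gene, had one 1622 bp upstream with 576.6 (ranks 1642 and 1756 in replicates 1 and 3). Another TSS of Aldh-III had a promoter summit. CG17896 had 447.6 at 527 bp (ranks 2140 and 3678 in replicates 1 and 3).

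RasGAP1, which encodes a protein that switches Ras off, had lone summits on both sides of its start, 691 bp upstream (421.8) and 559 bp downstream in a coding exon (206.0). The summit at the TSS itself in the 30000-row list had 120.9 and missed the threshold. The upstream summit ranked 2786 in replicate 1 and 3525 in replicate 3.

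Other genes of the Ras, EGFR and FGFR pathways were S, aop and edl. S encodes Star, which traffics EGFR ligands. Its satellite in the first intron, 1834 bp downstream of the TSS, had 364.6, below its promoter summit of 783.4. aop encodes Yan, an ETS repressor that the pathway inactivates, and its lone summit 1500 bp upstream had 336.9. edl encodes a protein that binds Yan, and its satellite had 392.7, above its promoter summit of 233.1. Together these pathways had 5 of the 318 summits, at 4 of the 27 genes listed (1.57%), against 16 of 5825 promoter summits (0.275%). The Clopper-Pearson interval of the share in the zone, 0.512% to 3.63%, does not include 0.275%. The 2 counts were not tested against each other. RasGAP1 alone gave 2 of the summits, and 12 gene lists were compared. The share of the zone's bases that lies nearest to these genes was not counted, so the expected share is unknown.

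Of 12 gene lists, 4 had no summit in the zone. Cytosolic ribosomal protein genes had 0 of 318, although they had 98 promoter summits at 76 of 93 genes. Hox and segmentation genes, nuclear hormone receptors and cell cycle genes also had 0, with 2, 7 and 21 promoter summits. A count of 0 of 318 has a Clopper-Pearson upper bound of 1.15%, which is above the share that most of the other lists had. The bound lies below the share of promoter summits at ribosomal protein genes, 1.68%. It lies above that share for Hox and segmentation genes (0.0343%), nuclear hormone receptors (0.12%) and cell cycle genes (0.361%). These differences were not tested, and the zone's bases were not counted by gene list. Wnt, Hedgehog and Dpp genes had 3 summits (0.943%, against 0.446% of promoter summits), all lone, at Mad, shn and fz. Mad is the transcription factor of Dpp signalling, and its summit had 272.8.

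Polycomb and Trithorax genes had 3 summits (0.943%, against 0.601% of promoter summits), at Trl, osa and ph-p. Insulator and architectural genes had 2 (0.629%, against 0.378%), both at mod(mdg4), with 458.2 and 380.5 in the same region as a promoter summit of 845.9. Actin and adhesion genes had 2 (0.629%, against 0.498%), at Moe (324.0), which encodes the membrane-actin linker moesin, and at tsr (381.6), which encodes cofilin. The insulin and TOR list had 1 (0.314%, against 0.361%), a lone summit 649 bp upstream of an internal start of the insulin receptor gene InR (307.7). The Notch list had 1 (0.314%, against 0.326%), at the ubiquitin ligase gene neur, with 266.8. The neural fate list had 1 (0.314%, against 0.0687%), at elav, with 262.8. For each of the 7 lists with 1 to 3 summits the share of promoter summits lies inside the Clopper-Pearson interval of the share in the zone, which runs from 0.00796% to 1.74% for 1 summit and from 0.195% to 2.73% for 3.

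The arms differed in density. X held 75 of the summits at 13.4 per Mb of its zone, and 2R held 42 at 6.82 per Mb. The other large arms lay between, with 9.01 on 3R, 9.56 on 3L and 9.67 on 2L. As a share of each arm's own thresholded summits they made up 6.73% on X and 3.26% on 2R. The small chromosome 4, which is largely heterochromatic, held 10 at 37.2 per Mb, or 13.0% of its summits. On chromosome 4, 8 of the 10 were satellites, among them those of myo, a TGF-beta ligand gene, with 238.3, of PlexA, a semaphorin receptor gene, with 227.9, and of Cadps, with 201.4. All 10 had signals below 270, and the strongest was the satellite of Eph.

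The replicates placed these summits closely. Replicate 1 had a summit within 100 bp of 315 of the 318 (99.1%) and replicate 3 of 298 (93.7%). Both did so for 295 (92.8%, 89.3 to 95.4), against 89.9% of promoter summits and 92.3% of summits over 2000 bp away. The threshold used both replicates, so this agreement is part of how the summits were chosen. The nearest replicate summit was a median of 11 bp away in replicate 1 and 20 bp in replicate 3.

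Rank varied more than position. Median ranks among the 30000 summits of each replicate were 4795 in replicate 1 and 4842 in replicate 3, against 2980 and 2796 for promoter summits. Of the 318, 173 stood among the top 6415 of both replicates, 93 of replicate 1 alone, 46 of replicate 3 alone and 6 of neither. Some of the strongest summits ranked far higher in replicate 1, such as that of cbt (rank 41, against 628 in replicate 3).

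**Figure D4:**
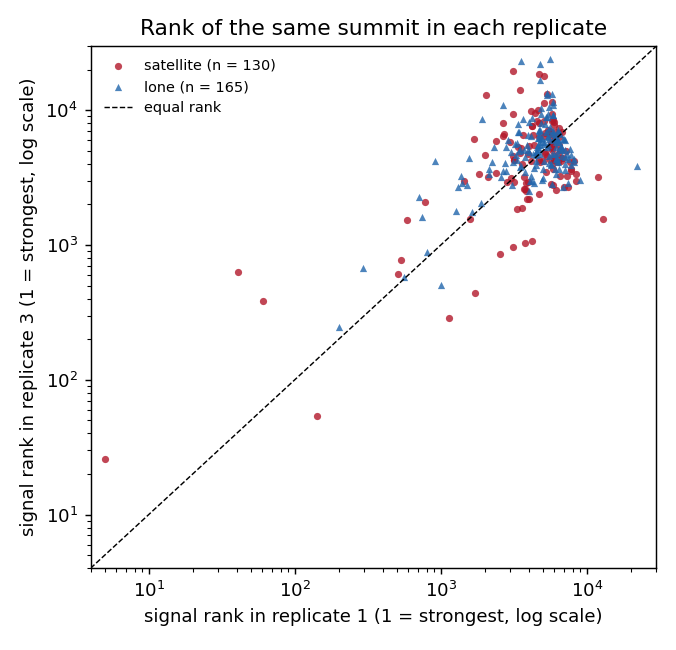
Signal rank of each summit in replicate 3 against its rank in replicate 1 (log axes, 1 is the strongest), for the 295 of 318 summits with a summit within 100 bp in both replicates; circles are satellites, triangles are lone summits and the dashed line marks equal rank. Most points lie between ranks 1000 and 10000 in both, and 123 of the 295 rank higher in replicate 3.

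The DRE and Motif 1, 2 core promoter motifs, had lower shares at these summits than at promoter summits. Each motif was searched in the window of 100 bp to either side of the summit, on both strands. The DRE, TATCGATA, was present at 6 of 318 (1.89%), against 4.24% of promoter summits, 0.356% of all 161168 windows of the same length in the zone and 7.50% of windows at the TSSs of 13944 protein-coding genes. The core of Motif 1, GGTCACAC, was present at 3 (0.943%), against 5.92%, 0.283% and 6.52%. Summits over 2000 bp away also had low shares, 0.735% for the DRE and 0.368% for the core of Motif 1. Ohler motif 6 was present at 0, with an upper bound of 1.15%, and Ohler motif 7 at 3.46%. The BEAF site CGATA, which lies within the DRE, was present at 22.6%, against 30.7% of promoter summits and 21.5% of the zone's windows. The initiator, TCAGTC or TCAGTT, was present at 15.7%, against 17.1% in both.

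GAGA elements and CA repeats had higher shares than in the zone's windows, and CA repeats also had a higher share than in the flanking windows. The GAGA element GAGAGAG was present at 28 of 318 (8.81%, 5.93 to 12.5), against 3.47% of promoter summits and 2.25% of the zone's windows. The flanking windows 500 bp further from the TSS had it at 6.29%, which is inside the interval of the summits. The CA repeat CACACACA was present at 32 (10.1%, 6.99 to 13.9), against 6.20% and 3.46%, and at 5.35% of the flanking windows. Summits over 2000 bp away had it at 8.82%, inside that interval, and had the GAGA element at 5.88%. The CA repeat was split by kind, with 16.6% of satellites (10.9 to 23.6) and 4.62% of lone summits (2.02 to 8.91). A run of 8 A letters was present at 12.6%, the TATA box TATAAA at 27.4% and the Zelda site CAGGTAG at 2.20%. The zone's windows had these at 9.26%, 20.5% and 1.29%, and the flanking windows at 15.1%, 23.9% and 1.57%. Summits over 2000 bp away had them at 9.56%, 29% and 0.735%. The flanking share of the A run was above that of the summits but inside their interval, 9.14 to 16.7. The flanking shares of the TATA box and the Zelda site also lay inside the summits' intervals, 22.5 to 32.6 and 0.889 to 4.48. The AP-1 site TGANTCA, the Pho site GCCATTT and the E-box CAGCTG were present at 3.77%, 4.09% and 10.4% of the summits, against 4.21%, 5.21% and 9.34% of the zone's windows and 3.79%, 5.65% and 16.2% of promoter summits.

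Base composition also differed between these groups. The median GC content of the windows searched was 37.8% for the 318 summits, against 45.3% for promoter summits, 36.8% over 2000 bp away and 43.3% for the zone's windows. The flanking windows, 500 bp further from the TSS, had 39.3%. Satellites had 41.3% and lone summits 36.8%. The part of GC content in the motif and word shares was not tested.

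A set of words of 6 letters occurred beside the summits. The 3 words ranked highest at summits over 2000 bp away, against all windows at that distance, were the word AGTGTA, the word ACAGTG and the word ACACTG. They can overlap one another, ACACTG lies within the longer Motif 1, and they were searched on both strands. They were ranked without the 318 summits, but after words at the 318 had also been looked at, so the counts are a description. Any of the 3 was present within 100 bp of 131 of the 318 summits (41.2%, 35.7 to 46.8), against 27.6% of promoter summits and 17.7% of the zone's windows. The windows 500 bp further from the TSS had 15.7%. At summits over 2000 bp away, where the words were chosen, the share was 42.3%.

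A word was present at 46.2% of lone summits (38.6 to 54.0) and at 35.2% of satellites (27.4 to 43.5), with intervals that overlap. Lone summits in introns stood at 52.1% (41.6 to 62.4). Singly, ACAGTG was present at 22.0% of the 318, ACACTG at 18.6% and AGTGTA at 14.2%, against 7.52%, 7.30% and 7.0% of the zone's windows. Signal did not differ much with a word, at a median of 251.7 with one and 245.8 without.

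The words were most frequent a short way to the side of the summit. Between 50 and 100 bp on either side there were 20.8 and 22.0 matches per 100 summits. In the 50 bp on either side of the summit itself there were 8.81 and 13.5, and from 250 to 500 bp away the bins held 2.52 to 7.23. At promoter summits no 50 bp bin exceeded 11.8 per 100. Summits over 2000 bp away, where the words were chosen, had 29.8 and 32.4 per 100 between 50 and 100 bp. Their central bins had 9.56 and 9.19, so the side peaks are not particular to the zone. Words on both sides of the summit within 100 bp occurred at 19 of the 318 (5.97%, 3.64 to 9.17), against 2.16% of promoter summits and 11.0% over 2000 bp away. Windows with more words can also hold them on both sides more often, and the part of word frequency in these shares was not tested. The CG17896 and lncRNA:CR45643 windows printed above have capitals on both sides of the central base.

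**Figure D5:**
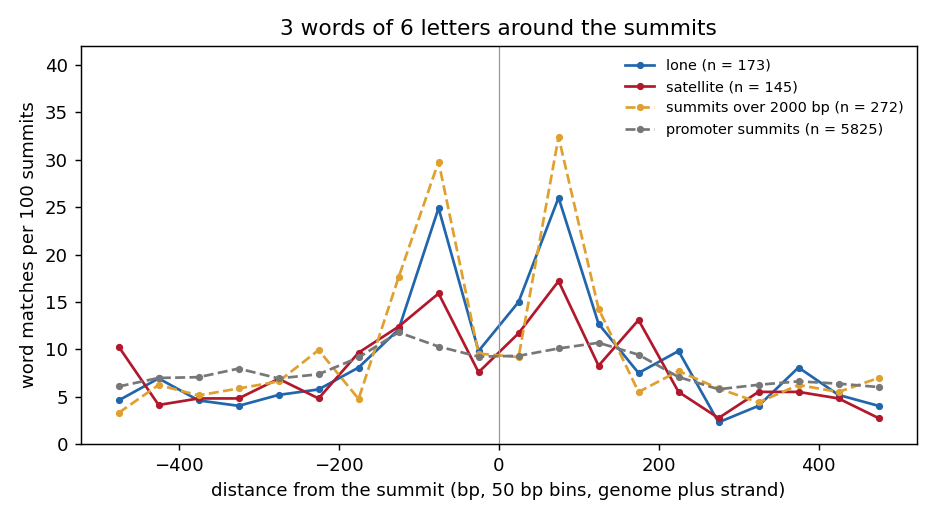
Matches to the 3 words per 100 summits in 50 bp bins by distance from the summit (bp), for 173 lone and 145 satellite summits, 272 summits over 2000 bp away and 5825 promoter summits. Lone summits reach 24.9 and 26.0 per 100 in the bins 50 to 100 bp to each side and 9.83 and 15.0 in the central bins, and promoter summits stay at 11.8 or below.

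Transposable elements were a minor part of the set. The summit base lay in an annotated element in 4 of 318 cases (1.26%), against 4 of 5825 promoter summits (0.0687%) and 2.15% of the zone's bases. An element lay within 500 bp of 16 summits (5.03%), against 2.20% of promoter summits. Whether reads with several matching positions were kept is not stated in the labels or files used here.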

How the data were processed

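ChIP-seq was performed on 2 samples of 1 group. The signal of each peak and a −log10 q value were deposited by the authors, and the signal scale is set per list. The −log10 q values repeat their maximum at the strongest peaks, so the deposited signal alone was used for ranking. Peaks were called, according to the file listing deposited with the samples, per replicate against 1 shared control alignment and on both replicates together, 30000 summits in each list. The thresholded list of 6415 summits keeps those that passed a limit on the irreproducible discovery rate (IDR), and all were found in the list of both replicates with the same signal. No label or file used here states the read depth, aligner, peak caller or IDR limit, and no interval covers read sampling.

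TSSs were the starts of 35497 Ensembl transcripts (release 115), and the genome was release 6 (dm6). Where annotations overlap, exons took precedence over introns, and among exons 5' UTR came first, then coding sequence and 3' UTR. Each summit counted separately. Shares have Clopper-Pearson 95% intervals, which treat summits as independent. No test was run, since 1 group has no comparison over samples. Distances and word searches were tested on simulated data. The members and lists were chosen with earlier results of these data known. The words, the rank bands and the summit spacing were added after the data were seen. Genes were named by signal: the 20 strongest summits, the 5 strongest lone first-intron, lone upstream intergenic and satellite summits, the summits next to the limits, and list members. Others were chosen after their values were seen. The summit closest to 2000 bp, which this rule takes, is not reported here. Python 3.11.15, pandas 2.3.3, numpy 2.4.6, scipy 1.17.1 and matplotlib 3.10.9 were used.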

Additional observations from a re-analysis of the deposited data

How the results depend on the processing

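The number, the intronic share and the first-intron share stayed within 1.5 times the reported count or within the reported 95% interval under all 7 alternatives, except that the 3207 summits with the highest signal left 59 summits in the zone. Among these 3207 the upstream share was 52.5%, the satellite share 30.5% and the ratio of median signal, members over promoter summits, 0.885, against 0.614 in the whole list. These 3207 held 30 of the 145 satellites, and at 12 of the 30 the promoter summit was not among them. The satellite share depended most on the definition. It was 52.8% with protein-coding TSSs alone, 39.9% with 1 summit per region, 22.6% with a promoter summit within 1000 bp, 7.86% in the same region and 77.0% when any summit of the 30000-row list at the TSS counted. From single replicates (the 6415 strongest of each), without replicate 3 and without replicate 1, the satellite share ran from 43.3% to 56.6%, the number from 312 to 424, the upstream share from 38% to 40.7%, the intronic share from 63.7% to 67.9%, the first-intron share from 54.7% to 58.3% and the signal ratio from 0.578 to 0.666. Both replicates had a summit of 76.7% of the members within 50 bp, of 97.2% within 200 bp and shared a region with 98.7%. Motif shares grew with the window, from 2.52% within 50 bp to 14.5% within 150 bp for GAGA. No paired analysis was possible because the study has 1 group. Read depth is unknown, 2 replicates give little measure of spread, and intervals cover counting alone.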
